A study of Mus musculus with 8 samples.

Results

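Kidneys of mice that received a control miRNA on polyethylenimine nanoparticles before ischaemic injury were compared with kidneys of mice that had the injury alone. The comparison rests on 4 of the 8 samples of the series, taken by their titles: control-miRNA mice 1 and 5 and ischaemia-reperfusion injury (IRI) mice 30 and 34. Messenger RNA of the left kidney was measured on 1-colour mouse arrays, 1 array per mouse, 24 h after the operation. In IRI mice the right kidney was removed and the left renal vessels were clamped for 45 min and released. Control-miRNA mice had the same operation 2 days after 5 nmol of control miRNA, complexed with the polymer at an N/P ratio of 6 in 200 µl, had gone into the tail vein. The remaining groups serve as reference: sham mice 1 and 4 had only a midline incision, and mimic mice 6 and 7 had the injury after the same injection with a mimic of miR-5100 in place of the control miRNA. One sentence of the study's design text states that injections were given in all models, whereas its protocols of the sham and IRI groups name none, so IRI mice are taken here as not injected. No group had the polymer without RNA, an injection of buffer or an injection without injury, so injection, polymer and RNA cannot be told apart. The labels do not state the strain, sex or age of the mice.

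Polyethylenimine is a cationic polymer that binds nucleic acids and carries them into cells, and a control miRNA is a small RNA given to account for delivery and for RNA load rather than for the sequence under study. A mature miRNA finds its targets mainly through its seed, bases 2 to 8 from its 5′ end. The injected RNAs are shown here because they are what separates the injected groups; the seed is in capitals.
control miRNA: gGUUCGUAcguacacuguuca
miR-5100 mimic: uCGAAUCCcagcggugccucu
Both are 21 bases long. Among 1679 mature mouse miRNAs of the RefSeq table (assembly GRCm38.p6) 0 shared the 7 bases of the control miRNA's seed, and 0 shared its bases 2 to 7. The mimic had the sequence of 1 of them, mmu-miR-5100.

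Clamping the renal vessels kills and dedifferentiates tubular epithelium, above all in the proximal tubule, and within a day the surviving epithelium makes injury proteins such as KIM-1 and lipocalin 2 while leukocytes enter the tissue. Interstitial fibroblasts and pericytes make the collagens, microfibrils and matricellular proteins of the kidney stroma, and they expand later, during repair. Levels are log2 signals relative to the 75th percentile of their own array, so a difference of 1 is a 2-fold change, and levels of different genes cannot be set against each other. The RNA came from 30 mg of whole tissue, so more cells of a type and more RNA per cell cannot be told apart.

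The arrays carried the labels' tissue and injury. Umod, the urinary protein of the thick ascending limb, lay between 7.25 and 8.03 on all 8 arrays. Havcr1, the gene of KIM-1, did not rise well above background in either sham mouse and lay at 4.36 and 4.56 in IRI and at 4.44 and 4.25 in control-miRNA mice. The percentile used for scaling was a signal of 468 and 600 in IRI and of 500 and 416 in control-miRNA mice, and 53.2% to 58.8% of spots were well above background on the 8 arrays. All arrays lay on 1 slide. IRI and sham arrays held its first row and control-miRNA and mimic arrays its second, so slide row and injection cannot be told apart; IRI 30 and control-miRNA 1 shared a column, as did IRI 34 and control-miRNA 5. The control-miRNA mice differed more from each other than the IRI mice did: the standard deviation over genes of the difference within the pair was 0.515 between control-miRNA mice and 0.390 between IRI mice. The labels number the mice but do not describe how they were raised or drawn, and the p-values measure only the spread between these samples.

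Of 21264 genes tested, 0 (0%) passed an adjusted p of 0.05 in control-miRNA against IRI mice (limma, Benjamini-Hochberg), and the smallest adjusted p was 0.0625, of Adamtsl2. At an unadjusted p under 0.05, 631 genes (2.97%) lay higher and 239 (1.12%) lower in control-miRNA mice. Both arrays of the control-miRNA group lay above both IRI arrays for 3742 genes (17.6%) and below both for 3188 (15%). These shares are the background for every count of list members below. The split between directions depended on the scaling of the arrays. Of the genes under an unadjusted p of 0.05, 72.5% lay higher in control-miRNA mice; the share was 58.6% after quantile normalization and also in the authors' deposited values, 57.1% with array brightness as a covariate, 56.3% without control-miRNA mouse 5 and 41.2% after centring arrays on their median, which moved the median difference of all genes from 0.01 to -0.11. Without a filter on dim probes that median was 0.12. The same test called 2234 genes (10.5%) higher and 1175 (5.53%) lower in mimic against IRI mice, and 0 (0%) in mimic against control-miRNA mice. Since no gene passed in the comparison with control miRNA, the differences below are measured values and none is a called change.

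**Figure D1:**
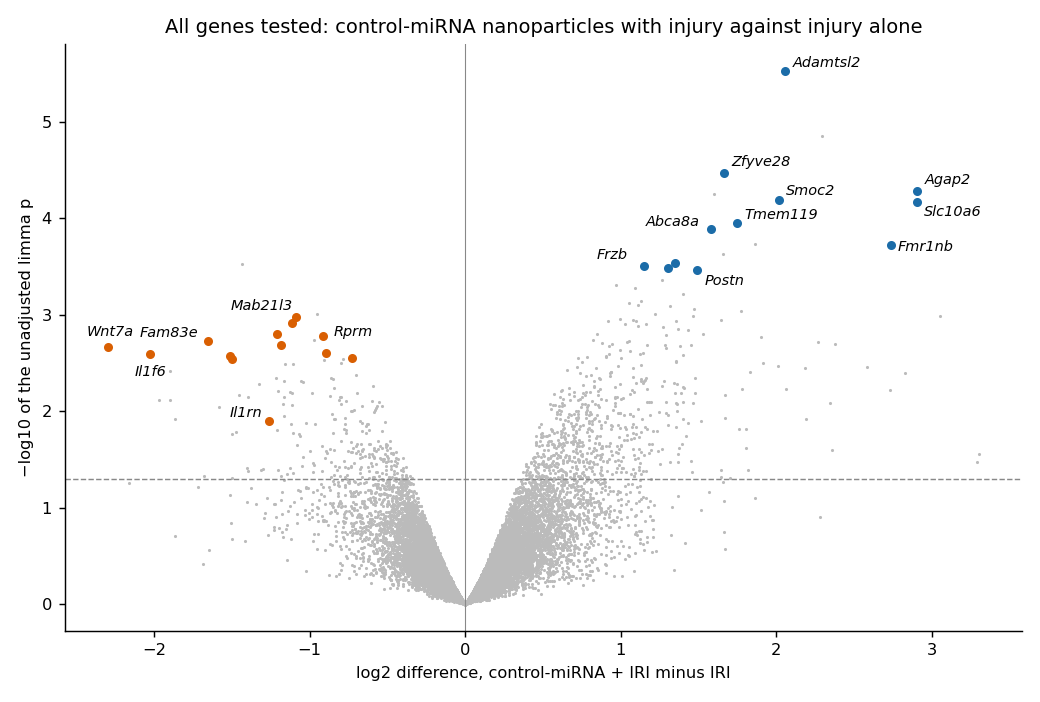
Each point is 1 of the 21264 genes, with the log2 difference between control-miRNA and IRI mice (2 arrays each) on the horizontal axis and the −log10 of its unadjusted limma p on the vertical axis; the dashed line marks an unadjusted p of 0.05. Coloured points are the 12 genes of smallest p in each direction that have a gene name, and Il1rn; Adamtsl2 lies at the top with a difference of 2.06.

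Adamtsl2, a secreted glycoprotein of the ADAMTS-like family that binds fibrillin microfibrils and latent TGF-beta binding protein, had the smallest p. Its probe lies on chromosome 2 (26964005 to 26964064, build mm9). Its level was -3.92 and -3.84 in IRI and -1.84 and -1.81 in control-miRNA mice, a difference of 2.06 ± 0.15 (moderated SE, 2 mice per group, limma, unadjusted p = 2.94e-06, adjusted p = 0.0625), or 4.17-fold. Sham kidneys lay at -2.00 and -1.92, close to the control-miRNA mice, and mimic mice at -2.90 and -2.82, between them and the IRI mice. Comparisons of IRI with sham and with mimic mice use the same low IRI arrays, so they add no separate support. In them Adamtsl2 was lower after IRI than in sham kidney (-1.92 ± 0.15, limma, adjusted p = 0.001), and higher in mimic than in IRI mice by 1.02 ± 0.15 (adjusted p = 0.0386). It passed the adjusted threshold in the comparison with control miRNA under array quality weights (adjusted p = 0.0304) and among genes well above background on all 4 arrays compared (0.0351); elsewhere the adjusted p ran from 0.0562 to 0.620.

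Postn encodes periostin, a matricellular protein that activated fibroblasts secrete and that is scarce in healthy kidney. Its probe lies on chromosome 3 (54194385 to 54194444, build mm9). It lay at -4.10 and -3.94 in IRI and at -2.52 and -2.53 in control-miRNA mice, a difference of 1.49 ± 0.23 (unadjusted p = 0.000344, adjusted p = 0.431). Its other probes on the array gave 1.86 and 2.67. Sham mice had the lowest levels, -4.66 and -4.62, but only 1 of 2 sham arrays was well above background. Mimic mice lay at -2.13 and -2.76, on either side of the control-miRNA mice.

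Several enzymes and scaffold proteins of elastic fibres lay on the same side. Lox, the lysyl oxidase that cross-links collagen and elastin, was at -2.42 and -3.15 in IRI and at -1.02 and -1.49 in control-miRNA mice (1.53 ± 0.30, unadjusted p = 0.0016). Loxl2, a relative of it, was at -0.51 and -0.72 against 0.72 and -0.03 (0.96 ± 0.26, unadjusted p = 0.0082). Another probe gave 1.62 for Lox but only 0.29 for Loxl2. Mfap5, a microfibril-associated glycoprotein, was not well above background in IRI mice, and its level in control-miRNA mice (-2.94 and -4.00) was at least 2.92-fold higher. Mfap2, its paralog on microfibrils, lay at -2.31 and -2.69 in IRI and at -1.27 and -1.57 in control-miRNA mice. Fbln1 (fibulin 1) differed by 1.16 ± 0.36, Loxl1 by 0.63 ± 0.26 and Emilin1 by 0.53 ± 0.17, and the arrays of the groups did not overlap for any of these 3. The other probes of Fbln1 gave 0.14 and 1.08. Adamts1, a matrix protease induced in the injured kidney, lay the other way, at 4.05 and 4.11 in IRI and at 3.72 and 3.46 in control-miRNA mice (-0.49 ± 0.20). Of the 36 matricellular and microfibril genes 35 could be tested. Their median difference was 0.39, against 0.01 over all genes; 19 lay higher on both arrays and 5 lower on both, and 9 against 1 had an unadjusted p under 0.05. Adamtsl2 and Postn, with which the comparison was given, are among the 9, and Mfap5, Loxl2, Fbln1, Mfap2, Emilin1, Loxl1 and Adamts1 are named because they complete that count. The list's median was 0.59 in control-miRNA mouse 1 and 0.16 in mouse 5, each against the mean of the IRI mice.

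**Figure D2:**
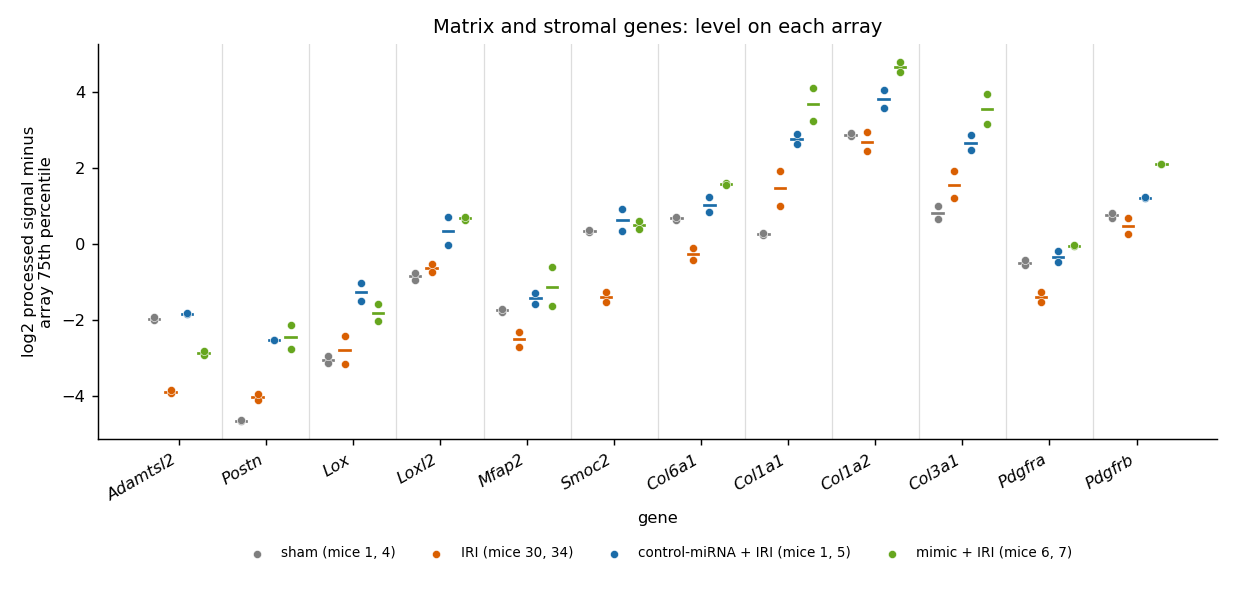
Level of 12 matrix and stromal genes on each array (log2 signal relative to the array's 75th percentile); each point is 1 mouse, each bar the mean of the 2 mice of a group. For these genes both control-miRNA mice lie above both IRI mice, for example at -1.84 and -1.81 against -3.92 and -3.84 for Adamtsl2. Acta2 and Vim, for which the groups overlapped, are not shown.

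Most of the fibroblast and pericyte genes tested lay higher in control-miRNA mice. Of the 23 genes of that list 20 were tested, since Lum, Dpt and Fap were not well above background on both arrays of any group. Their median difference was 0.53; 11 lay higher on both arrays and 0 lower on both, and 8 had an unadjusted p under 0.05, all with higher levels: Col6a1, Pdgfra, Col1a2, Col5a1, Pdgfrb, Col1a1, Col3a1 and Dcn. Col6a1, a chain of the microfibrillar collagen VI, lay at -0.10 and -0.41 in IRI and at 1.24 and 0.86 in control-miRNA mice (1.30 ± 0.20, unadjusted p = 0.000328, adjusted p = 0.431). Sham lay between the groups at 0.64 and 0.72. Pdgfra, the platelet-derived growth factor receptor of interstitial fibroblasts, was at -1.24 and -1.53 against -0.18 and -0.47 (1.06 ± 0.18), with sham at -0.54 and -0.42. Pdgfrb, the receptor of pericytes, was at 0.69 and 0.26 against 1.22 and 1.24 (0.76 ± 0.19).

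The fibrillar collagens had the same order with more spread. Col1a1 lay at 1.94 and 1.02 in IRI and at 2.91 and 2.65 in control-miRNA mice (1.31 ± 0.38), Col1a2 at 2.95 and 2.45 against 4.05 and 3.60 (1.13 ± 0.24), and Col3a1 at 1.93 and 1.22 against 2.88 and 2.47 (1.10 ± 0.35). Their other probes gave 1.27 and 1.27 for Col1a1, 0.72 and 0.85 for Col1a2, and 0.63 and 0.70 for Col3a1. For these chains of collagens I and III the mimic mice were higher still, at 3.25 and 4.11 for Col1a1. Col5a1, a chain that nucleates fibrils, differed by 0.92 ± 0.20, and Dcn, the proteoglycan decorin that coats them, by 0.84 ± 0.31. Dcn remained far from sham: it was at 2.69 and 2.85 there, at 0.25 and 0.40 in IRI and at 1.18 and 1.15 in control-miRNA mice. Contractile genes of mural cells in the same list were not among the 8. Acta2, a smooth muscle actin, lay at 3.31 and 3.08 in IRI and at 4.09 and 2.74 in control-miRNA mice (0.22 ± 0.53). Vim, which encodes vimentin, lay at 2.35 and 2.45 against 3.37 and 1.97 (0.27 ± 0.42). For both genes the groups overlapped, and control-miRNA mouse 5 lay below both IRI mice. In mimic against IRI mice the list's median difference was 1.46, and 10 of its 20 members passed the adjusted threshold with higher levels; both comparisons use the same IRI mice. The summed level of the list (log2) was 5.95 and 5.60 in IRI, 6.76 and 5.98 in control-miRNA and 7.54 and 7.08 in mimic mice, so control-miRNA mouse 5 lay close to IRI mouse 30.

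Among the genes of smallest p, other genes with higher levels in control-miRNA mice were of mixed function. Smoc2, a matricellular calcium-binding protein, lay at -1.52 and -1.25 in IRI and at 0.34 and 0.93 in control-miRNA mice (2.02 ± 0.23, unadjusted p = 6.51e-05, adjusted p = 0.205). Sham kidneys had 0.32 and 0.38, so the control-miRNA mice were at or above the uninjured level. Frzb, a secreted Wnt antagonist, lay at -1.03 and -1.09 against 0.22 and -0.04 (1.15 ± 0.17), below sham at 0.45 and 0.46. Tmem119, a membrane protein of osteoblasts and microglia, lay at -1.26 and -1.55 against 0.37 and 0.32 (1.75 ± 0.22), and here sham (-1.16 and -0.92) was close to IRI. Slco2b1, an organic anion transporter, differed by 1.35 ± 0.20, but another of its probes gave -0.01. Abca8a, an ABC transporter of lipids, was at least 2.26-fold higher, since it was not well above background in IRI mice.

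For 4 genes of this group the size is a lower bound for the same reason. Agap2, a GTPase-activating protein of the Arf family, lay at -4.87 and -5.03 in IRI mice, not well above background, and at -2.15 and -1.93 in control-miRNA mice, at least 7.42-fold higher (unadjusted p = 5.2e-05, adjusted p = 0.205). Sham mice lay at -3.35 and -3.10. Zfyve28, a FYVE-domain protein that acts on EGF receptor traffic, was at least 2.08-fold higher, Fmr1nb at least 2.66-fold, and Slc10a6, a sodium-dependent carrier of sulfated steroids, at least 1.80-fold. Slc10a6 was well above background only in control-miRNA mice (-4.41 and -3.92): sham lay at -6.47 and -5.54 and mimic mice at -6.31 and -5.99. It was thus kept for testing only through the control-miRNA group, and the size of its gap to the dim groups is not known.

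Genes with lower levels in control-miRNA mice included secreted and signalling proteins that were dim or not above background in sham kidney. Il1f6 encodes interleukin 36 alpha, an epithelial cytokine of the interleukin 1 family. It was not well above background in sham, lay at 1.40 and 1.91 in IRI and at -1.07 and 0.32 in control-miRNA mice (-2.03 ± 0.44, unadjusted p = 0.00257, adjusted p = 0.719), and at -1.21 and -1.11 in mimic mice. The control-miRNA mice thus lay 4.08-fold below the IRI mice on average, and mouse 5 was nearer to them than mouse 1. Il1rn, the interleukin 1 receptor antagonist (probe on chromosome 2, 24206125 to 24206184, build mm9), lay at -1.44 and -0.85 in IRI, at -1.89 and -2.91 in control-miRNA and at -2.44 and -2.13 in mimic mice. The difference between control-miRNA and IRI mice was -1.26 ± 0.38 (unadjusted p = 0.0126, adjusted p = 0.89), and sham mice were not well above background. Il1r2, the decoy receptor of interleukin 1, lay the other way, at -2.76 and -3.02 against -1.15 and -1.29 (1.67 ± 0.49). The 11 tested genes of the interleukin 1 family had a median difference of -0.02, and 1 lay higher and 2 lower at an unadjusted p under 0.05.

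Other members of the lower group were of mixed function. Pcdh8, a protocadherin, lay at -0.74 and -0.84 in IRI and at -2.67 and -1.94 in control-miRNA mice (-1.51 ± 0.33), and at -3.38 in both mimic mice. Wnt7a, a Wnt ligand, lay at -3.03 and -2.53 in IRI mice and was not well above background in any other group. It was thus kept for testing only through the IRI group, where it is high. Its level was at least 3.74-fold higher in IRI than in control-miRNA mice, and the size of the gap is not known. Tmem145 lay at -0.50 and 0.06 against -2.16 and -1.29 (-1.50 ± 0.33). Rcan1, the inhibitor of calcineurin, lay at 5.44 and 5.60 against 4.01 and 4.67 (-1.18 ± 0.25), and sham at 3.41 and 3.34. Mab21l3 (-1.09 ± 0.20) and Rprm, a p53-induced arrest protein (-0.91 ± 0.18), also lay between the sham and IRI levels. Rtn4r, the Nogo receptor (-1.11 ± 0.21), lay below sham on both control-miRNA arrays. For Iyd, the iodotyrosine deiodinase, the control-miRNA mice lay farther from sham than the IRI mice: it was at -2.10 and -2.09 in sham, -2.69 and -2.83 in IRI and -3.54 and -3.44 in control-miRNA mice. Olfr558, Cib4 and Fam83e, all dim, were not well above background in either control-miRNA mouse. They were at least 1.82-fold, 1.07-fold and 1.19-fold higher in IRI mice. Cib4 was well above background on only 1 of 2 IRI arrays. Fam83e, like Wnt7a, was kept for testing only through the IRI group.

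**Figure D3:**
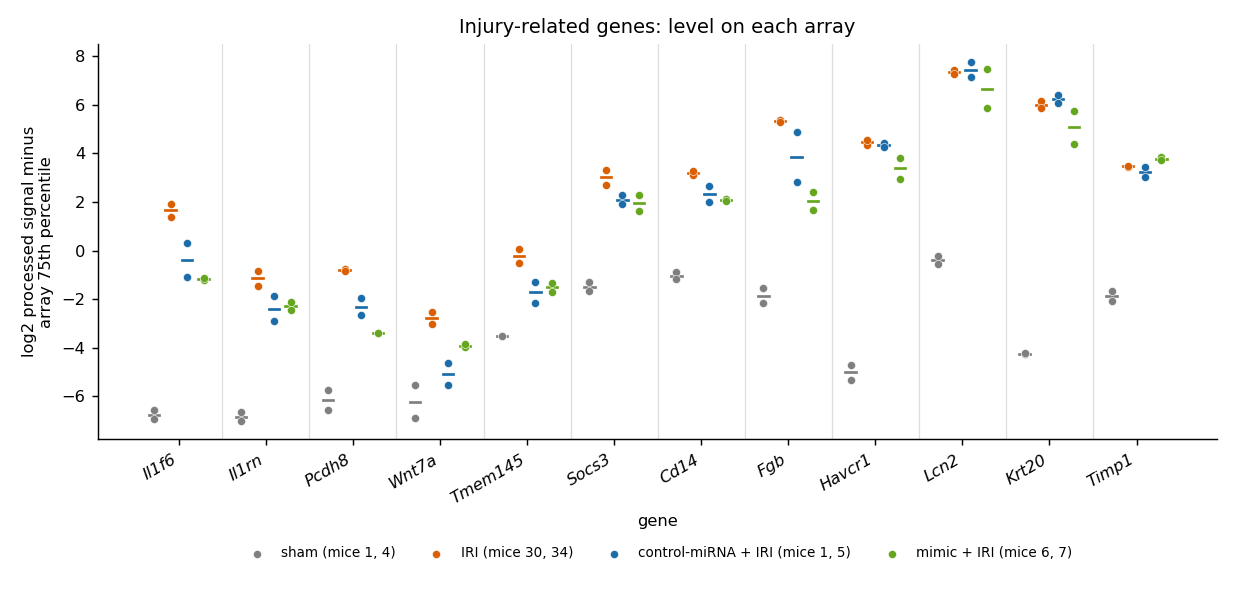
Level of 12 genes of the injury response on each array (log2 signal relative to the array's 75th percentile); each point is 1 mouse, each bar the mean of the 2 mice of a group. For Il1f6, Pcdh8 and Wnt7a both control-miRNA mice lie below both IRI mice, and Wnt7a was well above background only in IRI mice. For Havcr1, Lcn2, Krt20 and Timp1 the groups overlap. IRI mice lie, in that order, at 4.36 to 4.56, 7.28 to 7.45, 5.87 to 6.16 and 3.43 to 3.50.

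The common markers of tubular injury lay at similar levels in both groups. Lcn2, which encodes lipocalin 2, lay at 7.45 and 7.28 in IRI and at 7.77 and 7.13 in control-miRNA mice (0.09 ± 0.51), against -0.22 and -0.57 in sham. Havcr1 differed by -0.12 ± 0.32, Krt20, a keratin of injured tubules, by 0.22 ± 0.40 and Timp1, the metalloproteinase inhibitor, by -0.23 ± 0.21. The arrays of the groups overlapped for all 4, and the direction of Havcr1 turned with array brightness as a covariate (0.20). Lcn2 turned after median centring (-0.032), in the mean over its probes (-0.052) and without control-miRNA mouse 1 (-0.23). With 2 mice per group a difference of the size of these errors was not detectable. Of the 32 genes of the tubular injury list 2 lay higher on both arrays and 7 lower on both, with a median of -0.10, but of 0.05 under the brightness covariate. The 3 fibrinogen chains, which injured tubules make, were lower with a wide spread between the control-miRNA mice: Fgb lay at 5.39 and 5.31 in IRI and at 2.83 and 4.87 in control-miRNA mice (-1.50 ± 0.63, unadjusted p = 0.0492). Fga differed by -1.27 ± 0.62 and Fgg by -1.18 ± 0.58. In mimic mice Fgb lay lower again, at 2.40 and 1.68.

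Nephron segments were followed by their own lists. The 40 proximal tubule genes had a median difference of 0.00, with 3 higher and 7 lower on both arrays. The 14 genes of the distal and connecting tubule had a median of -0.10, with 1 higher and 5 lower, and the 19 of the collecting duct one of 0.08, with 5 higher and 2 lower. The 14 genes of the thick ascending limb had a median of 0.35, with 4 higher and 0 lower. That median was 0.11 in control-miRNA mouse 1 and 0.51 in mouse 5. The list's median gap within groups was larger: -0.58 for IRI mouse 30 minus 34 and -0.52 for control-miRNA mouse 1 minus 5. Slc12a1, the sodium-potassium-chloride cotransporter of that segment, lay at 0.56 and 1.03 in IRI and at 1.69 and 2.28 in control-miRNA mice (1.19 ± 0.59, unadjusted p = 0.0847), far below sham at 3.73 and 4.15. Scnn1a, the alpha subunit of the epithelial sodium channel of the collecting duct, lay at 2.79 and 2.52 against 3.40 and 3.46 (0.78 ± 0.23), near sham at 3.39 and 3.43, but another of its probes gave -0.13. The medians were 0.05 for 22 endothelial genes, 0.00 for 30 genes of fatty acid oxidation and -0.08 for 30 genes of respiration and the citric acid cycle; after median centring the endothelial, proximal tubule and collecting duct medians were -0.07, -0.12 and -0.04.

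Most of the neutrophil genes tested lay higher in control-miRNA mice. Of 18 such genes 12 were tested; Mmp9, Ngp, Ltf, Mpo, Slfn4 and Cd177 were not well above background on both arrays of any group. The median difference was 0.73; 8 lay higher on both arrays and 0 lower on both, and 4 had an unadjusted p under 0.05. Retnlg, a resistin-like protein of neutrophils, lay at -2.59 and -2.58 in IRI and at -1.05 and -0.56 in control-miRNA mice (1.78 ± 0.45), against -1.62 and -3.12 in mimic mice. S100a8, a subunit of calprotectin, lay at -0.03 and 0.42 against 1.14 and 1.48 (1.12 ± 0.36). Mmp8, the neutrophil collagenase, lay at -3.94 and -4.11 against -2.81 and -2.33 (1.45 ± 0.54), and Il1r2, given above, is the fourth. Of the 12 genes 11 had a positive difference. The exception was Ly6g, a surface marker of mouse neutrophils, at 1.07 and 1.65 in IRI and at 1.48 and 0.80 in control-miRNA mice (-0.22 ± 0.50). The list's median was 0.44 in control-miRNA mouse 1 and 1.07 in mouse 5, and it was 0.37 after normexp background correction. The summed level of the list (log2) was 5.74 and 5.55 in IRI and 5.72 and 6.05 in control-miRNA mice, so only mouse 5 lay above both IRI mice.

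Macrophage genes, 19 of 22 tested, had a median of 0.42, with 6 higher and 1 lower on both arrays. The median was 0.43 in control-miRNA mouse 1 but 0.10 in mouse 5. C1qc, a chain of complement C1q that resident macrophages make, lay at 0.12 and 0.02 in IRI and at 0.50 and 0.81 in control-miRNA mice (0.58 ± 0.21). Adgre1, which encodes F4/80, lay at -2.34 and -2.01 against -1.66 and -1.47 (0.61 ± 0.24). For both genes IRI mice lay below sham, which was at 0.90 and 0.45 for C1qc and at -0.75 and -1.34 for Adgre1. Control-miRNA mice overlapped sham for C1qc and lay below it for Adgre1. Cd14, the lipopolysaccharide co-receptor, lay lower, at 3.11 and 3.26 against 1.99 and 2.66 (-0.86 ± 0.25), with sham at -0.89 and -1.16. Ctss, the lysosomal protease cathepsin S, belongs to the lysosome and autophagy list and not to this one. It lay at 1.78 and 1.52 against 2.69 and 2.43 (0.91 ± 0.20). The 28 genes tested of the lysosome and autophagy list had a median of -0.04, with 5 higher and 8 lower on both arrays. Lymphocyte genes had a median of 0.00 over 15 genes, with 2 higher and 2 lower on both arrays. Of these, Il7r, the interleukin 7 receptor, differed by 0.80 ± 0.23. Klrd1, an NK cell receptor, was at least 1.31-fold higher and well above background on 1 of 2 control-miRNA arrays. Cd5, a T cell surface protein, lay the other way. It was not well above background in control-miRNA mice and at least 1.27-fold higher in IRI mice.

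Most cytokine and NF-kB genes tested lay lower. The 26 genes tested had a median difference of -0.32; 2 lay higher and 10 lower on both arrays, and 3 had an unadjusted p under 0.05, all lower. Socs3, the feedback inhibitor of interleukin 6 signalling, lay at 2.69 and 3.33 in IRI and at 1.91 and 2.28 in control-miRNA mice (-0.92 ± 0.32). Lif, a cytokine of the same receptor family, lay at -2.80 and -2.85 against -4.05 and -3.40 (-0.90 ± 0.33), while mimic mice lay at -2.38 and -3.27. Relb, a subunit of NF-kB, lay at 0.80 and 0.93 against 0.12 and 0.43 (-0.59 ± 0.21). Cxcl1, a neutrophil chemoattractant, and Il6 overlapped between the groups (-0.73 ± 0.41 and -0.98 ± 0.73). Of 23 genes of TGF-beta and BMP signalling 6 lay higher and 8 lower on both arrays, with a median of -0.10 (0.06 with the brightness covariate), and the 2 with an unadjusted p under 0.05 were Id1 (-0.51 ± 0.19) and Id2 (-0.45 ± 0.16), both immediate targets of BMP signalling and both lower.

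**Figure D4:**
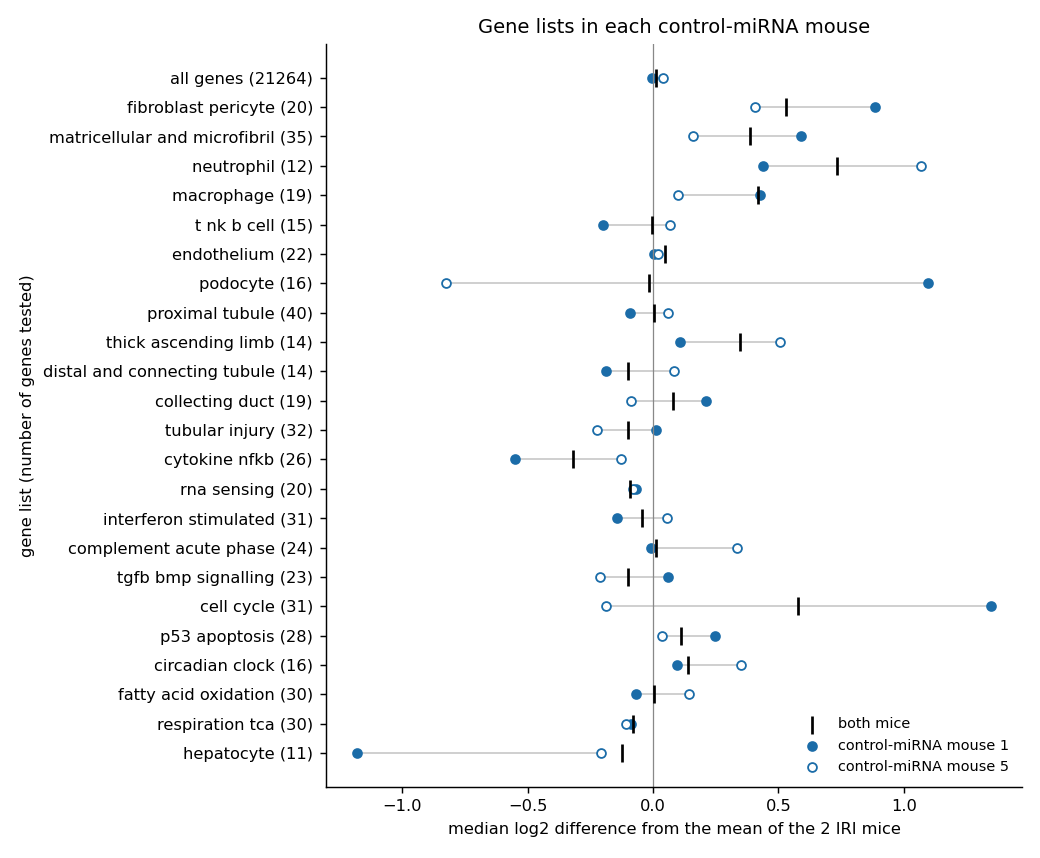
Median log2 difference of 23 gene lists and of all genes from the mean of the IRI mice, for control-miRNA mouse 1 (filled), mouse 5 (open) and the mean of both (bar); the number of genes tested follows each name. Fibroblast and neutrophil lists lie above 0 in both mice, whereas cell cycle and podocyte lists lie at 1.35 and 1.10 in mouse 1 and at -0.19 and -0.82 in mouse 5.

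Sensors of foreign RNA and interferon-stimulated genes are what a delivered small RNA could engage. Of 20 RNA-sensing genes 6 had a positive difference, and the median was -0.09, with 1 higher and 5 lower on both arrays, and over 31 interferon-stimulated genes, of which 12 were positive, it was -0.05, with 4 on each side. Irf7, the inducible interferon regulatory factor, was the case with an unadjusted p under 0.05 among the sensors: it lay at 2.24 and 2.22 in IRI, 2.97 and 3.30 in control-miRNA and 3.02 and 3.34 in mimic mice (0.91 ± 0.20). Isg20, an RNA exonuclease, lay at 0.87 and 1.18 against 2.06 and 2.25 (1.13 ± 0.20, unadjusted p = 0.000718). Isg15, the ubiquitin-like interferon product, lay at 1.01 and 1.42 in IRI, 0.65 and 0.91 in control-miRNA and 2.28 and 2.10 in mimic mice, and Usp18, its protease, had the same order. The difference between mimic and control-miRNA mice was 1.41 for Isg15 and 1.13 for Usp18 (adjusted p = 0.066 for both).

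Clock genes differed in both directions. Nr1d1, the repressor REV-ERB alpha, lay at -0.53 and -0.54 in IRI and at -3.32 and -1.55 in control-miRNA mice (-1.90 ± 0.51), and mimic mice lay at -2.30 and -2.36. Cry1, a cryptochrome, lay at -3.33 and -3.84 against -2.26 and -2.23 (1.34 ± 0.33), with mimic mice at -1.89 and -2.37. Per1, a period gene, differed by 1.13 ± 0.36. Of 16 clock genes 7 lay higher and 3 lower on both arrays, with a median of 0.14 (-0.025 with the brightness covariate). The labels do not state the time of day at which kidneys were taken.

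The control-miRNA mice differed from each other by more than 1 on the log2 scale for 1102 genes (5.18%), of which 474 were higher in mouse 1 and 628 in mouse 5. The IRI mice did so for 538 genes (2.53%). Among named genes well above background in both control-miRNA mice, the widest gap was that of Saa2, the acute phase serum amyloid A2, at -3.28 in mouse 1 and 1.24 in mouse 5; IRI mice lay at 0.23 and 1.46. The alpha-1-antitrypsin paralogs Serpina1a to Serpina1e, whose near-identical transcripts the probes may not separate, were also higher in mouse 5, with Serpina1a at 2.73 and 6.15. Mouse 1 had the higher levels of podocyte genes, with Wt1 at 1.23 against -1.55, and all 16 podocyte genes lay above mouse 5. It also had the higher levels of dividing cells, with Mki67 at 1.41 against -1.72 and Top2a at 0.52 against -2.39. All 31 cell cycle genes had a positive difference from IRI, with a median of 0.58, but only 2 lay higher on both arrays. Without mouse 5 or without mouse 1 the cell cycle and podocyte medians thus take opposite signs, so their values here rest on which of the control-miRNA mice is taken.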

How the data were processed

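Agilent Feature Extraction 12.0.3.1 made the scanner output, per the submitters' processing notes. The processed signal of a spot is, per the file headers, a background-subtracted intensity with no scaling between arrays, and spots carry 0/1 quality flags. The values deposited for the whole series are linear ratios; in all 56745 probes the 2 middle values multiply to 1, as after division by the probe's median, and how arrays were scaled before that is unknown. These ratios served only as an alternative. Control spots and outlier spots (79 to 127 per array) were left out; 0 were saturated. The log2 processed signal, less the 75th percentile of all non-control spots of that array, was averaged per probe. A probe was kept if some group had it well above background in both mice (32218 probes), and the probe with the highest mean stood for its gene. Names came from RefSeq accessions (33762 probes), current symbols (9871), older symbols (310) or the file (12662). Array number limits the precision.

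The 8 arrays were fitted with limma 3.58.1 in R 4.3.3 (lmFit, eBayes), 1 mean per group, with Benjamini-Hochberg adjustment over 21264 genes and a threshold of 0.05. The code was tested on simulated data. A gene not well above background on either array of a group has a bound ("at least N-fold"): the bright group's mean over the dim group's, with every dim array raised, where lower, to its lowest signal well above background. The comparison, its marker genes and the 36 gene lists were chosen with earlier results of these data known, so list counts are descriptions. Named genes are the 12 of smallest p per direction (clone and predicted names left out), up to 3 members per list by smallest p, Adamtsl2, Postn and Il1rn, and 13 injury, cytokine, interferon and tubule genes; others were named after their values were seen. Fitted alternatives numbered 17, including each replicate of both groups left out in turn. Results for some genes are not reported here.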

Additional observations from a re-analysis of the deposited data

How the results depend on the processing

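No gene was called in 15 of the 17 alternatives; array quality weights called 3 genes higher, among them Adamtsl2 and Agap2, and a filter for probes well above background on all 4 arrays compared called 1 higher, Adamtsl2. Genes under an unadjusted p of 0.05 numbered 389 higher and 555 lower after median centring, 1526 and 416 without a filter on dim probes, and 996 and 488 without the mimic arrays, an alternative chosen after seeing the data. With array brightness as a covariate 491 lay lower, and with array quality weights 384. Leaving out 1 mouse at a time gave 352 to 698 higher and 150 to 542 lower. It moved the median of the fibroblast and pericyte list between 0.40 and 0.88, of the matricellular list between 0.16 and 0.59 and of the neutrophil list between 0.44 and 1.07, with 5 to 10, 5 to 15 and 2 to 6 members under that p. The neutrophil median was 0.37 with normexp correction, and 7 of its members passed that p with only the 4 arrays compared, with array quality weights and without the mimic arrays. The medians of the fibroblast, matricellular, neutrophil, macrophage and cytokine lists kept their sign in all 17 alternatives. Among 82 genes examined in every alternative that kept them, the direction turned for Havcr1 with the brightness covariate (0.20) and for Lcn2 after median centring (-0.032), in the mean over probes (-0.052) and without control-miRNA mouse 1 (-0.23); leaving out 1 mouse at a time gave -0.23 to 0.41 for Lcn2. No paired analysis by replicate number was possible, because the control-miRNA and IRI mice share none; with the slide column, which their arrays do share, as a covariate, 639 genes lay higher and 254 lower at an unadjusted p under 0.05, and the adjusted p of Adamtsl2 was 0.288 (limma). With 2 mice per group, genes dim on both IRI arrays have only a bound.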

Other observations

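A list of 20 genes that glucocorticoids are known to induce was drawn up after the values were seen, so it has no test and its members cannot support a direction. Tsc22d3, which encodes the glucocorticoid-induced leucine zipper, lay at 1.52 and 1.58 in IRI and at 3.50 and 2.89 in control-miRNA mice (1.64 ± 0.31, limma, unadjusted p = 0.00113, adjusted p = 0.641). Zbtb16, a zinc finger repressor, lay at 0.22 and -1.40 against 1.81 and 1.56 (2.27 ± 0.47), and Fkbp5, a co-chaperone of the glucocorticoid receptor, at 3.55 and 2.78 against 4.95 and 4.18 (1.40 ± 0.35). Sgk1, a kinase of sodium transport, lay at 2.70 and 2.32 against 4.35 and 3.42 (1.37 ± 0.49), and Hif3a at -2.11 and -3.66 against -0.72 and -1.03 (2.01 ± 0.46). For Tsc22d3 sham mice, at 2.40 and 3.11, overlapped the control-miRNA mice. Sham lay below both control-miRNA mice for Zbtb16 (-0.57 and -0.54), Fkbp5 (2.43 and 2.45), Sgk1 (1.29 and 2.51) and Hif3a (-3.34 and -3.47). The mimic mice lay at 3.24 and 2.77 for Fkbp5, -0.31 and -0.37 for Zbtb16, 2.56 and 1.83 for Sgk1 and -2.18 and -2.52 for Hif3a, where they overlapped or lay between the IRI mice; for Tsc22d3 they lay at 2.00 and 2.35, above both IRI mice. Over the 20 genes 18 had a positive difference between control-miRNA and IRI mice, 12 lay higher and 2 lower on both arrays, and the median was 0.66, against 0.01 over all genes; in mimic against IRI mice the median was -0.03. The median was 0.90 in control-miRNA mouse 1 and 0.40 in mouse 5. Differences between mimic and control-miRNA mice were -1.57 for Fkbp5 and -2.03 for Zbtb16 (adjusted p = 0.066 for both).

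Sult1a1, a phenol sulfotransferase of the same list, lay at -0.10 and -0.12 in IRI and at 1.29 and 0.82 in control-miRNA mice (1.17 ± 0.22), with mimic mice at -0.07 and 0.06. Sham mice lay at 1.05 and 1.43, so the control-miRNA mice were near the uninjured level. Outside the list, Hsd11b1 and Nr3c1 were also named after their values were seen. Hsd11b1, the enzyme that regenerates active glucocorticoid in tissue, was at 3.51 and 3.19 in sham and at 0.48 and 0.77 in IRI. It was at 1.77 and 2.39 in control-miRNA and at 2.07 and 1.44 in mimic mice. It differed by 1.45 ± 0.30 between control-miRNA and IRI mice (limma, adjusted p = 0.683). Nr3c1, the glucocorticoid receptor, lay at 2.50 and 2.80 in IRI and at 2.65 and 2.57 in control-miRNA mice (-0.05 ± 0.21). The groups overlapped, and another of its probes gave -0.37.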
